A study of Mus musculus with 4 samples.

Results

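Mki67, Top2a, Ccnb1, Cdk1, Aurka, Aurkb, Plk1, Bub1, Cdc20 and Aspm, a set of 10 genes of mitosis, were followed in mouse melanoma cells after an antibody against the receptor TIM3. Members were the probes that the array annotation, or the current RefSeq symbol of its accession, assigned to these genes, a rule that uses no measured value. All 10 were found among 17790 gene names with a tested probe, with 19 probes among 41174 non-control probes. Cdk1 carries its former name, Cdc2a, in the files. Of the 19 probes, 17 entered the test, because their spots were well above background in either dye on at least 3 of the 4 arrays, as were 26545 probes in all.

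The cells were B16-F10, an established mouse melanoma line grown in vitro, and the molecule was total RNA. On each of 4 Agilent 2-colour arrays, the Cy5 dye marked cells given a goat polyclonal agonist antibody against mouse TIM3, and the Cy3 dye marked cells of the same passage given unspecific goat IgG as the control. Both agents were used at 15 ug/ml for 2 h, except that the labels give no dose or time for the anti-TIM3 sample of replicate 3. The labels name 4 biological replicates, here replicates 1 to 4, which were passages 14, 16, 18 and 19. All of them come from 1 line, so p-values measure the spread between its passages. No array had the dyes exchanged, so an effect of the antibody and an effect of the dye on a probe cannot be told apart.

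A cell enters mitosis when cyclin B1, bound to the kinase CDK1, accumulates in an active form, and leaves it when the anaphase-promoting complex destroys the cyclin. Polo-like and Aurora kinases build the spindle, and the spindle checkpoint delays anaphase until all chromosomes are attached. The RNAs of these genes rise together late in the cell cycle and are low in resting cells, so they commonly serve as markers of dividing cells, melanoma cells included.

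The log2 ratio is the log2 signal of anti-TIM3 cells minus that of IgG cells on the same array, after a background correction and a correction of the ratio for signal strength (loess). A probe was called when its limma p-value, adjusted over all tested probes by the Benjamini-Hochberg method, was under 0.05. The ratios of the mitotic genes were small in both directions. Of the 17 tested probes, 5 were called higher with anti-TIM3 (1 each of Top2a, Ccnb1 and Cdc20 and 2 of Aspm), beside 14.2% of all tested probes. Both Aspm probes entered the test through the anti-TIM3 channel, where they were high, so their calls are given as a description. With detection required in both dyes on all arrays, 15 probes remained and 3 were called higher, those of Top2a, Ccnb1 and Cdc20, beside 16.3% of all 20593 probes so kept. The single probe called lower belonged to Mki67, beside 13.6% of all tested probes, or 17.0% with detection in both dyes. The other 11 were not called. The median ratio of the 17 probes was 0.02 on the log2 scale, beside 0.01 for all tested probes, and their range was -0.19 to 0.48. The upper end was the 5′ Aspm probe, whose IgG signal was below background, so it is not a measured size. Among the 15 probes detected in both dyes, the highest ratio was 0.21, at the 5′ Top2a probe. With each gene represented by its brightest tested probe, Cdc20 was the 1 gene called higher, beside 14.8% of all genes, and Mki67 the 1 gene called lower, beside 12.8%.

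**Figure D1:**
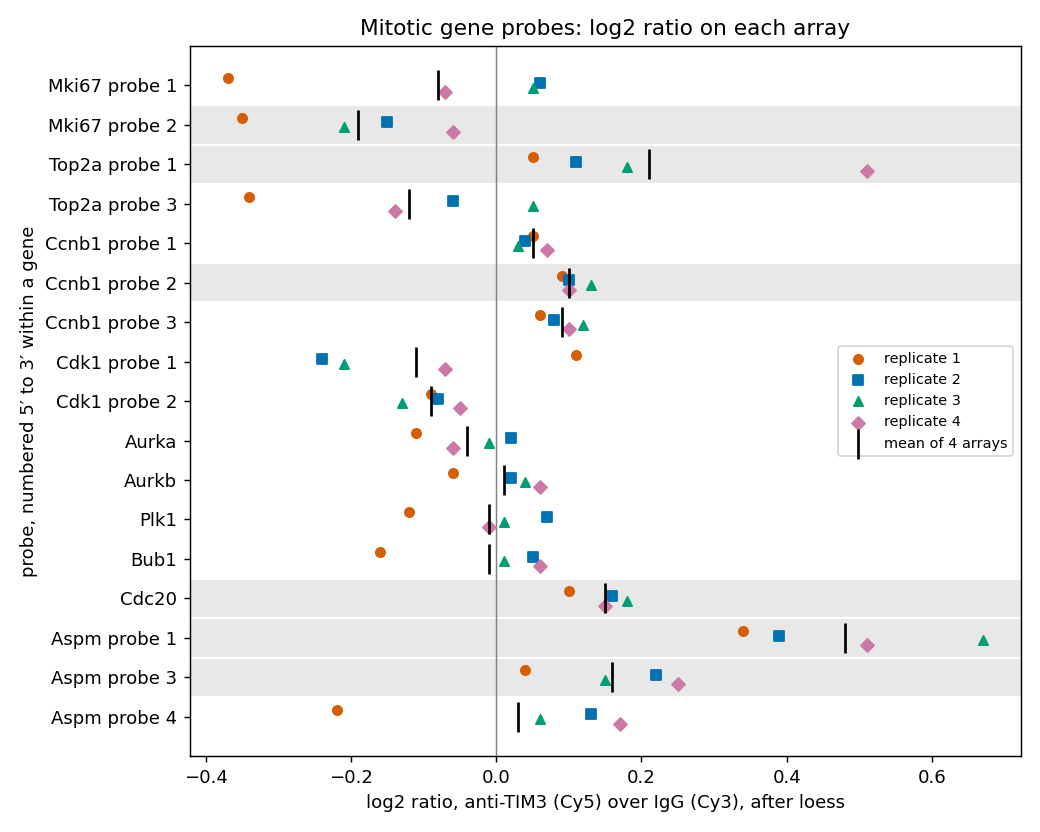
Log2 ratio of anti-TIM3 (Cy5) over IgG (Cy3) for each tested probe, with 1 symbol per array, the mean as a vertical bar and the 6 called probes on grey. Replicate 1 (circles) is the leftmost symbol for 14 of the 17 probes, and the Ccnb1 and Cdc20 symbols lie close together to the right of 0; with median centring in place of loess, several means left of 0 move to its right and the median of all probes to 0.15.

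The melanocyte identity of the cells was clear in the control channel, where all 7 melanocyte markers (Mlana, Pmel, Dct, Tyr, Tyrp1, Mitf and Sox10) were well above background on every array, with signals of 628 to 117000. Of the other cell type markers, 3 of 7 T cell (Cd3e, Cd4 and Lck, whereas Ptprc and Cd3d were above background on 0 arrays), 1 of 5 macrophage, 2 of 5 fibroblast and 0 of 4 endothelial markers were above background on all 4 arrays. Spots well above background numbered 22375 to 23367 in Cy3 and 27200 to 30058 in Cy5. No spot of a mitotic gene was saturated or an outlier, and 15 of the 17 tested probes were above background in both dyes on all arrays. All 4 arrays lay on 1 slide in 1 scan, so neither could be fitted as a block.

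Some sequences show what was measured. Of the 19 probes, 4 cross an intron, since the genomic span in the files exceeds the 60 bases of the probe. These match spliced RNA, and they include the Top2a pair on which a later comparison turns. The Top2a pair and the Cdk1 probe are given 5′ to 3′ in the direction of the RNA, from the files, with mm7 positions.
Top2a, 5′ probe, chr11:99124086-99125113, minus strand: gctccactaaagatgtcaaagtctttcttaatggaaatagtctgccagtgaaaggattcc
Top2a, 3′ probe, chr11:99104969-99105783, minus strand: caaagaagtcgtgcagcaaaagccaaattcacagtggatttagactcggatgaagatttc
Cdk1, 5′ probe, chr10:68946079-68948488, minus strand: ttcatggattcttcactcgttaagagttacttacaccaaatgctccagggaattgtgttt
The files give no exon or UTR annotation for the other probes, which is why they are described by position only.

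The genes also share promoter features that the choice did not use. A window from 250 bases before to 50 bases after the transcription start (RefSeq, GRCm38.p6) was at hand for 9 of the 10 genes, all except Aurkb. It was searched on both strands for TTTGAA, the core of the cell cycle genes homology region, which reads TTCAAA on the other strand, and for CCAAT, the core bound by the factor NF-Y, which reads ATTGG there. TTTGAA lay in 7 of 9 windows, in 31 of 50 windows of other mitotic genes (62.0%) and in 17.9% of all 32851 windows. CCAAT lay in 9 of 9, in 68.0% of the other mitotic genes and in 37.4% of all. Both were found in 7 of 9, in 52.0% and in 6.95%. The 7 were Mki67, Top2a, Cdk1, Aurka, Plk1, Cdc20 and Aspm; Ccnb1 and Bub1 held CCAAT without TTTGAA. No match of one motif overlapped a match of the other. The 150 bases before the start are given for 2 genes that hold both motifs there and for the 2 without TTTGAA, with matches to either motif in capitals. A match is a description of letters, not evidence of binding.
Cdc20, chr4:118437344-118437493, minus strand: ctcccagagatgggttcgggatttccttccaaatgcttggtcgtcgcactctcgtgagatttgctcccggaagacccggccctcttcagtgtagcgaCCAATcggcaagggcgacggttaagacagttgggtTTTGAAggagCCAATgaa
Cdk1, chr10:69352913-69353062, minus strand: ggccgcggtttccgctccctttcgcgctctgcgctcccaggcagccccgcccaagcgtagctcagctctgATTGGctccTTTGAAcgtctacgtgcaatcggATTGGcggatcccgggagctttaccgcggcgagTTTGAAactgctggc
Ccnb1, chr13:100786487-100786636, minus strand: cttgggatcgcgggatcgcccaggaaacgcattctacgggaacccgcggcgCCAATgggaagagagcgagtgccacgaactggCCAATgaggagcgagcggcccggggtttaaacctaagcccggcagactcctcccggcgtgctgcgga
Bub1, chr2:127831860-127832009, minus strand: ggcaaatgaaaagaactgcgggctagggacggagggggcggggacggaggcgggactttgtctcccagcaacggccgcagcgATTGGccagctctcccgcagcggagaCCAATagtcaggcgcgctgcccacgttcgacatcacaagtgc
Among the 7 genes with both motifs, Cdc20, 1 Top2a probe and 2 Aspm probes were called higher after loess. The 2 Aspm probes were admitted to the test by their anti-TIM3 signal. In the same 7 genes, 1 Mki67 probe was called lower, and Cdk1, Aurka and Plk1 had no called probe. Of the 2 genes without TTTGAA, Ccnb1 had 1 probe called higher and Bub1 had no called probe. Of all tested probes, 14.2% were called higher and 13.6% lower. A link between motifs and calls was not tested.

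Ccnb1 encodes cyclin B1, the regulatory subunit that drives entry into mitosis. It had 3 probes within 1 kb of each other on the minus strand of chromosome 13 (mm7). At the middle probe, chr13:97885016-97885075, the processed signal with IgG was 3912, 2844, 2835 and 2926 in replicates 1 to 4, and with anti-TIM3 4182, 2948, 3009 and 3091. The anti-TIM3 signal was the higher of the pair on every array. The log2 ratio was 0.09, 0.10, 0.13 and 0.10, with a mean of 0.10 ± 0.02 (SD, n = 4; adjusted p = 0.0446), which is 1.07-fold. The 5′ probe, chr13:97885282-97885341, gave 0.05, 0.04, 0.03 and 0.07 (adjusted p = 0.288), and the 3′ probe, chr13:97884622-97884681, gave 0.06, 0.08, 0.12 and 0.10 (adjusted p = 0.0705). All 12 probe and array values of Ccnb1 were thus above 0, although 1 of the 3 probes passed. The difference between any 2 of its probes averaged at most 0.06. The call at the middle probe was lost with any 1 replicate left out, with adjusted p from 0.0637 to 0.161.

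Cdk1 encodes the catalytic kinase of that complex. Its intron-crossing probe had IgG signals of 9978, 10993, 11054 and 9880 in replicates 1 to 4, and anti-TIM3 signals of 10952, 9537, 9862 and 9590. Replicate 1 thus had more signal with anti-TIM3, and replicates 2, 3 and 4 had less. The ratios were 0.11, -0.24, -0.21 and -0.07, with a mean of -0.11 ± 0.16 (SD, n = 4; adjusted p = 0.185). Without replicate 1 the mean was -0.18 and the adjusted p 0.0385, so that replicate decided the call. The 3′ probe of Cdk1, chr10:68940820-68940879 on the minus strand, was dim, with signals of 63.4 to 84.5 in IgG and 66.1 to 80.6 in anti-TIM3 cells. It gave -0.09, -0.08, -0.13 and -0.05, below 0 on all 4 arrays, and was not called (adjusted p = 0.0782).

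Plk1 (chr7:118093971-118094030, plus strand), the polo-like kinase that matures centrosomes and helps activate CDK1, had 1 bright probe. Its IgG signals were 21376, 16261, 22101 and 19719, and its anti-TIM3 signals 18709, 16629, 21113 and 18853. The ratios were -0.12, 0.07, 0.01 and -0.01, on both sides of 0, with a mean of -0.01 ± 0.08 (SD, n = 4) and a 95% interval of -0.10 to 0.08 (adjusted p = 0.827).

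Aurka (chr2:172148888-172148947, minus strand), the Aurora kinase of the spindle poles, gave signals of 24762, 18537, 22499 and 21696 with IgG and 21443, 18222, 21441 and 20154 with anti-TIM3. The anti-TIM3 signal was the lower on all 4 arrays in these processed signals. After normexp and loess the ratios were -0.11, 0.02, -0.01 and -0.06, with a mean of -0.04 ± 0.06 (SD, n = 4; adjusted p = 0.438). When trends on signal strength and on base counts of the probes were also removed, Aurka was called lower at -0.12 (adjusted p = 0.0471).

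Aurkb (chr11:69133109-69133168, plus strand), the Aurora kinase of the chromosomal passenger complex, which corrects faulty attachments, had signals of 3909 to 4677 with IgG and 3879 to 4588 with anti-TIM3. The ratios were -0.06, 0.02, 0.04 and 0.06, with a mean of 0.01 ± 0.05 (SD, n = 4) and an interval of -0.07 to 0.10 (adjusted p = 0.78). Bub1 (chr2:127542105-127542164, minus strand), a kinase of the spindle checkpoint, had signals of 7614, 5924, 6098 and 5918 with IgG and 6976, 6187, 6179 and 6227 with anti-TIM3. Its ratios were -0.16, 0.05, 0.01 and 0.06, with a mean of -0.01 ± 0.10 (SD, n = 4) and an interval of -0.11 to 0.09 (adjusted p = 0.892). In both genes replicate 1 lay below 0 and the other 3 above it. For Plk1, Aurka, Aurkb and Bub1, these 95% intervals after loess, which are not corrected for the number of probes, reached no farther than 0.12 from 0 on either side. With median centring alone, which does not correct the ratio for signal strength, their means were 0.51, 0.50, 0.36 and 0.39. All probes then had a median of 0.15.

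Cdc20, the activator of the anaphase-promoting complex and the target of the checkpoint, was the brightest-probe call on the higher side. At its probe (chr4:117809370-117809429, minus strand) the IgG signals were 15224, 11956, 15552 and 15066, and the anti-TIM3 signals 15894, 13135, 17069 and 16422. Anti-TIM3 was the higher on each array, by 0.06, 0.14, 0.13 and 0.12 on the log2 scale of these signals. After normexp and loess the ratios were 0.10, 0.16, 0.18 and 0.15, with a mean of 0.15 ± 0.03 (SD, n = 4; adjusted p = 0.0133), which is 1.11-fold. The call was lost without replicate 2 (0.14, adjusted p = 0.0519) and without replicate 3 (0.14, adjusted p = 0.0568). It was also lost with the trends on signal strength and base counts removed, where the mean was 0.07 (adjusted p = 0.109).

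**Figure D2:**
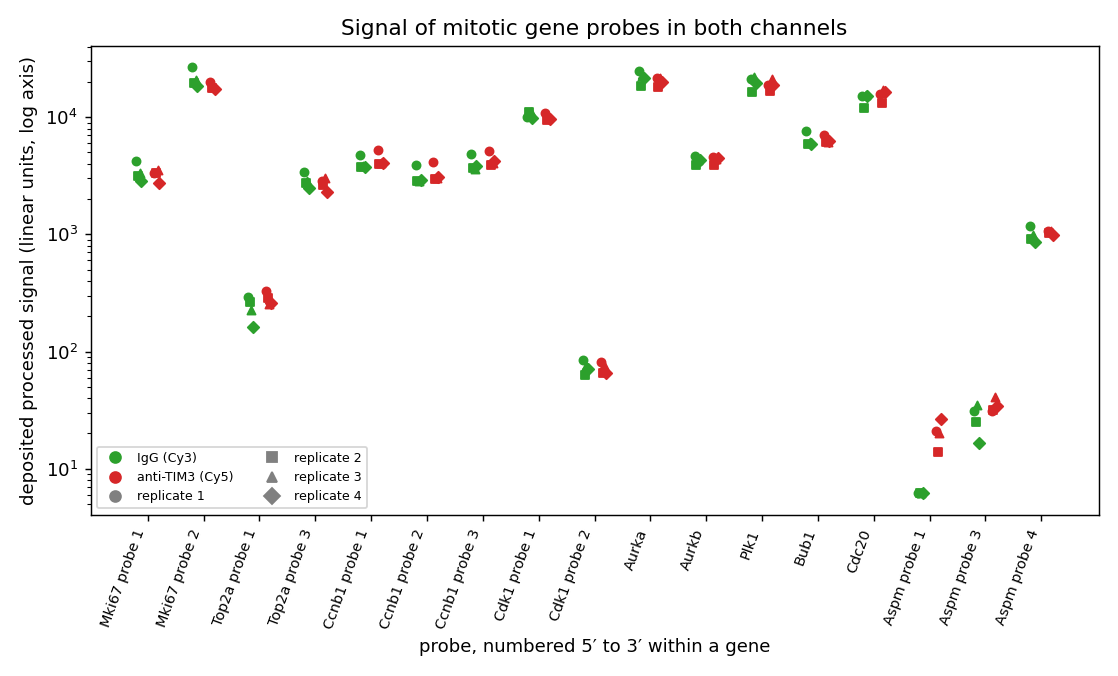
Deposited processed signal of each tested probe in both dyes, on a log axis, with 1 symbol per array. IgG (green) and anti-TIM3 (red) symbols overlap for most probes, and the 5′ Aspm probe is the exception, with IgG near 6.15 to 6.19 and anti-TIM3 from 13.8 to 26.3; heights of different probes are not comparable.

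Mki67 encodes Ki-67, the coat protein of mitotic chromosomes used as a marker of proliferation. Its 3′ probe (chr7:132094802-132094861, minus strand) had IgG signals of 26671, 19457, 20913 and 18449 and anti-TIM3 signals of 19944, 17615, 18052 and 17525. The anti-TIM3 signal was the lower on every array, most in replicate 1. The ratios were -0.35, -0.15, -0.21 and -0.06, with a mean of -0.19 ± 0.12 (SD, n = 4; adjusted p = 0.0177), which is 0.875-fold; centred on the array median in place of loess, the mean was 0.34, where all probes had a median of 0.15. Without replicate 1 the mean was -0.14 and the call was lost (adjusted p = 0.0539). The 5′ probe, 4.42 kb upstream (chr7:132099223-132099282), had IgG signals of 4199, 3145, 3343 and 2850 and anti-TIM3 signals of 3330, 3367, 3529 and 2727. It was lower in replicates 1 and 4 and higher in replicates 2 and 3. Its ratios were -0.37, 0.06, 0.05 and -0.07, with a mean of -0.08 ± 0.20 (SD, n = 4; adjusted p = 0.367). Both probes were thus farthest below 0 in replicate 1, and they differed by 0.21 and 0.26 in replicates 2 and 3.

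Top2a encodes topoisomerase II alpha, which untangles sister chromatids before they separate. Of its 3 probes, the 5′ intron-crossing probe had IgG signals of 292, 263, 228 and 163 and anti-TIM3 signals of 330, 285, 255 and 258. The IgG signal of replicate 4 was the lowest of the 8. The ratios were 0.05, 0.11, 0.18 and 0.51, with a mean of 0.21 ± 0.21 (SD, n = 4; adjusted p = 0.0467). Without replicate 4 the mean was 0.11 and the call was lost (adjusted p = 0.117), as it was without replicate 1 (0.27, adjusted p = 0.0545) or replicate 3 (0.22, adjusted p = 0.0623). The 3′ intron-crossing probe was brighter, with IgG signals of 3421, 2735, 2875 and 2501 and anti-TIM3 signals of 2841, 2658, 3050 and 2309. Its ratios were -0.34, -0.06, 0.05 and -0.14, with a mean of -0.12 ± 0.16 (SD, n = 4; adjusted p = 0.137). The probes of this gene, 19.2 kb apart, therefore lay on different sides of 0. The 5′ ratio exceeded the 3′ ratio on all 4 arrays, by 0.38, 0.17, 0.12 and 0.65 (mean 0.33 ± 0.24). A sign test over 4 arrays cannot go below p = 0.125 (exact, two-sided). The Top2a probe between them (chr11:99106757-99106816), taken from a cDNA entry, was dim: it passed the background test on 0 arrays with IgG and on 1 with anti-TIM3, and got no test.

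Aspm encodes the microtubule-associated protein of the spindle poles whose mutation causes microcephaly. It had 4 probes along the plus strand of chromosome 1. The 5′ probe, chr1:139339609-139339668, was not well above background on any array with IgG, with processed signals of 6.16, 6.15, 6.19 and 6.19. It was above background on all 4 with anti-TIM3, with 20.8, 13.8, 20.1 and 26.3, and so entered the test through the anti-TIM3 channel alone. Its ratios were 0.34, 0.39, 0.67 and 0.51, with a mean of 0.48 ± 0.15 (SD, n = 4; adjusted p = 0.000836). As the IgG level is only a bound, a lower limit can be given for the computed ratio. It was 1.12-fold, taking the dimmest signal well above background on each array as the limit. The measured mean log2 levels were 6.34 with IgG and 6.82 with anti-TIM3. Because the probe was admitted by its anti-TIM3 signal, neither this adjusted p nor the lower limit lends the call support. The probe is not tested where both dyes must be detected. The computed ratio moved with the background correction, to 0.93 when the normexp offset was 10 rather than 50 and to 1.68 ± 0.38 from the processed signals.

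This 5′ probe was designed on a cDNA entry rather than on the RefSeq transcript named for the other Aspm probes, and none of its 3 forward frames was free of a stop codon, as was also so for the 3′ Cdk1 and the Aurkb probes. The next Aspm probe (chr1:139340683-139340742) passed the background test on 0 arrays with IgG and 1 with anti-TIM3, too few for a test. The middle, intron-crossing probe was above background on 1 array with IgG and on 4 with anti-TIM3, so it too was admitted by its anti-TIM3 signal. Its signals were 31.2, 25.1, 34.9 and 16.6 with IgG and 30.9, 31.8, 40.7 and 34.4 with anti-TIM3, and its ratios were 0.04, 0.22, 0.15 and 0.25. The mean was 0.16 ± 0.09 (SD, n = 4; adjusted p = 0.0214), and the call was lost without replicate 2 (0.14, adjusted p = 0.0782) or replicate 4 (0.13, adjusted p = 0.0883). The 3′ probe (chr1:139373323-139373382) was the brightest, with signals of 1182, 908, 996 and 866 for IgG and 1058, 1018, 1071 and 994 for anti-TIM3. It gave -0.22, 0.13, 0.06 and 0.17, lower in replicate 1 and higher in the other 3, with a mean of 0.03 ± 0.17 (SD, n = 4; adjusted p = 0.69). The 3′ probe was thus the 1 Aspm probe measured in both dyes on all arrays, and it was not called.

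**Figure D3:**
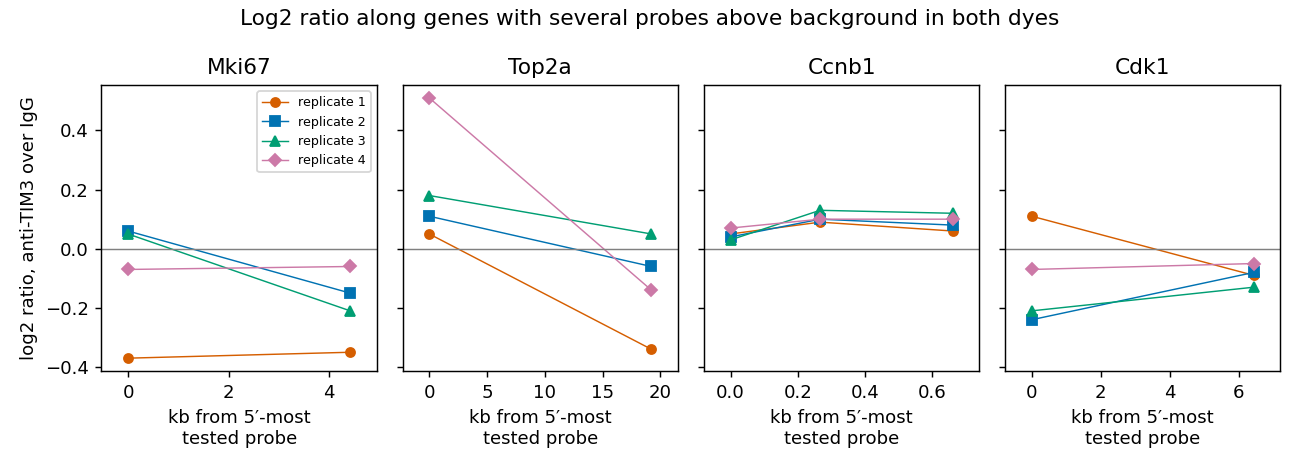
Log2 ratio of anti-TIM3 over IgG by distance from the 5′-most tested probe for the 4 genes with several probes above background in both dyes, with 1 line per array. Top2a lines slope down on all 4 arrays, Ccnb1 lines stay between 0.03 and 0.13, and Cdk1 lines slope both ways. Mki67 lines slope down in replicates 2 and 3 and are near level in replicates 1 and 4.

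Replicate 1 stood apart for these genes. It had the lowest ratio of the 4 arrays at 14 of the 17 tested probes (82.4%), beside 39.9% of all tested probes. By brightest probe, it was the lowest for 8 of the 10 genes, beside 38.8% of all genes. The exceptions were Cdk1 and Ccnb1. The median ratio of the 10 genes was -0.12 in replicate 1 and 0.03, 0.02 and 0.02 in replicates 2, 3 and 4. Over all genes it was -0.01, 0.02, 0.02 and 0.01. Other mitotic genes shared part of this trait, as replicate 1 was the lowest for 49.1% of the 57 in the wider list below. Their median ratio was -0.08 in replicate 1 and 0.01, 0.01 and -0.02 in replicates 2, 3 and 4. Replicate 1 also had the brightest array, with a median IgG signal over all tested probes of 390 beside 309 to 321 on the others, and its IgG signal was the highest at 70.6% of the mitotic gene probes and 70.7% of all tested probes. The part of array brightness in the lower ratios was not tested. Across all tested probes, the ratio had the same sign on all 4 arrays for 47.8%. For the mitotic probes this held for 9 of 17 (52.9%), which include every Ccnb1 probe and the Aspm probes admitted by their anti-TIM3 signal. By brightest probe, the sign was the same on all 4 arrays for 3 of the 10 genes, beside 48.3% of all genes.

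The calls on the mitotic probes differed between ways of making the ratios. From the processed signals that the scanner software wrote, 1 of the 17 probes was called higher, the 5′ Aspm probe, beside 10.8% of all probes. By the same signals 0 were called lower, beside 8.96% (1 at an unadjusted p under 0.05, the 3′ Mki67 probe), in limma. With trends on signal strength and base counts removed after loess, 2 were called higher, the 5′ probes of Aspm and Ccnb1, beside 13.1%. In both settings the 5′ Aspm probe was admitted by its anti-TIM3 signal, so its call is a description. The same setting called 2 lower, the 3′ Mki67 probe and Aurka, beside 13.2%. The 3′ Mki67 mean was -0.19, -0.21 and -0.24 in the 3 ways of processing. Cdc20 went from 0.15 to 0.11 and 0.07.

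**Figure D4:**
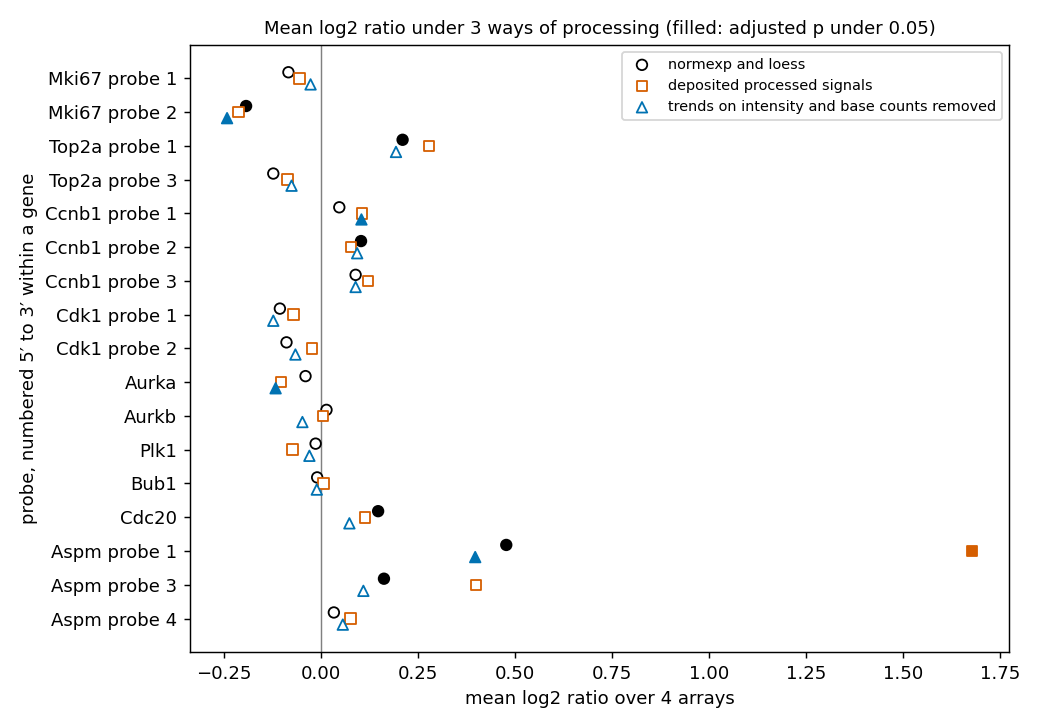
Mean log2 ratio of each tested probe by 3 ways of processing, with filled symbols where the adjusted p was under 0.05. The 5′ Aspm probe is filled in all 3, but its IgG signal is below background, so its position is not a measured size; the 3′ Mki67 probe in 2, and the Cdc20 probe only after normexp and loess.

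A wider list of 57 other mitotic genes was tested by the brightest probe, and all 57 entered. Of these, 9 were called higher (15.8%) and 16 lower (28.1%), beside the 14.8% and 12.8% of all genes, and 32 were not called. Their median ratio was -0.03, beside 0.01 for all genes. With median centring alone neither direction had a call. From the processed signals 5 of the 57 were higher and 6 lower, beside 10.8% and 8.96% of all probes. These shares are over all probes, not over genes by brightest probe, so they are not on the same footing as the 57.

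Among 9 genes of mitotic entry, 2 rose and 1 fell. Cdc25b, a phosphatase that activates CDK1, had ratios of -0.25, -0.48, -0.51 and -0.44 and fell by 0.42 ± 0.12 on the log2 scale (SD, n = 4; adjusted p = 0.000869), the farthest from 0 of the 57, although its other 2 probes, at -0.10 and -0.04, were not called. The CDK subunit Cks2 was at 0.17 ± 0.06 (adjusted p = 0.0094), with its other probe also called higher at 0.35, and Ccna2, cyclin A2, was at 0.14 ± 0.07 (adjusted p = 0.0229). Of 4 transcription factors of the G2/M programme, 0 were called in limma, and 0 at an unadjusted p under 0.05.

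The checkpoint and kinetochore genes moved both ways. Of 5 checkpoint genes, Mad1l1 rose by 0.14 ± 0.06, and Bub1b and Bub3, both parts of the checkpoint complex that binds CDC20, fell by 0.17 ± 0.10 and 0.15 ± 0.02; another Bub3 probe was called the opposite way at 0.15. Of 8 kinetochore and centromere genes, Knl1, the platform that recruits BUB1, rose by 0.35 ± 0.20 (adjusted p = 0.00643), Cenpf rose by 0.29 ± 0.12 (adjusted p = 0.00362), and Ndc80, the microtubule coupler, fell by 0.17 ± 0.05 (adjusted p = 0.00829). Another Knl1 probe at -0.05 and another Cenpf probe at 0.03 were not called. Spc25 was the other gene called lower.

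Of 3 genes for passenger proteins that accompany AURKB, Birc5 and Incenp were called higher, at 0.18 ± 0.05 (adjusted p = 0.00699) and 0.15 ± 0.04 (adjusted p = 0.0153). The other gene was not called. Birc5 was at 0.01 from the processed signals and 0.03 with trends removed, and was called in neither. Among 8 genes of the anaphase-promoting complex and of sister separation, the complex subunit Cdc16 rose by 0.27 ± 0.07 (adjusted p = 0.00217), with another probe at 0.01 not called, and Ube2c, the ubiquitin-conjugating enzyme of the complex, fell by 0.18 ± 0.03 (adjusted p = 0.00601). Pttg1, securin, was also called higher and Cdc27 lower, and another Cdc27 probe was called higher at 0.34.

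Of 12 genes for mitotic motors and spindle assembly, 5 were called lower and 0 higher (7 lower and 0 higher at an unadjusted p under 0.05, in limma). Of all genes, 12.8% were called lower and 14.8% higher. From the processed signals, only Kif2c, Nusap1 and Nek2 of the 5 were called. The genes called lower after loess included Kif2c, a microtubule depolymerase at centromeres, at -0.19 ± 0.06 (adjusted p = 0.00603), Nusap1 at -0.18 ± 0.07, Nek2 at -0.17 ± 0.10 and Kif4 at -0.15 ± 0.06. Of 5 condensin genes, 3 were called lower, with Ncapg and Ncaph, which encode non-SMC subunits, both at -0.18 and Smc2 at -0.13. From the processed signals none of these 3 was called (adjusted p = 0.056, 0.0585 and 0.12, in limma). The probes of these genes disagreed: 2 other Smc2 probes were called the opposite way (up to 0.32) and 1 the same way, another Ncapg probe was at 0.00, and Smc4, not called at its brightest probe, had another probe called higher at 0.41. Racgap1, of the central spindle in cytokinesis, was at -0.23 ± 0.12 (adjusted p = 0.00915), the 1 called of 3, with another probe at -0.03 not called. With median centring alone, where the median of all probes was 0.15, Kif2c (0.02), Ncaph (0.10) and Racgap1 (0.11) lay below that median and Nusap1 (0.20), Nek2 (0.18), Kif4 (0.19) and Ncapg (0.27) above it.

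Agreement between probes was limited in this wider list too. Of its 25 called genes, 12 had another tested probe. For 8 of the 12 no other probe was called, for 2 another was called the same way and for 3 the opposite way, with 1 gene in both of these counts. Without each replicate in turn, 14 of the 25 kept their call every time.

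**Figure D5:**
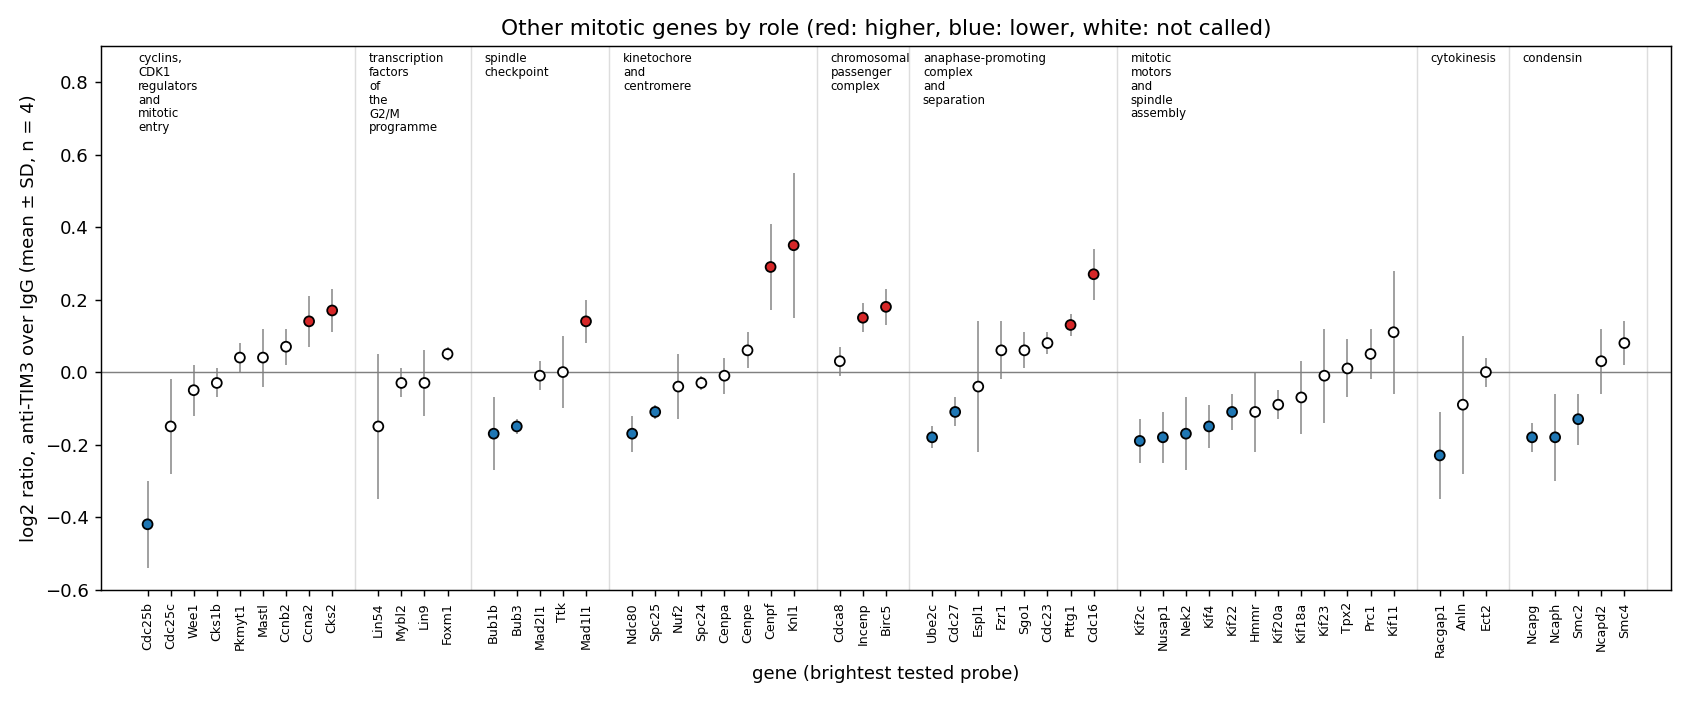
Mean log2 ratio ± SD (n = 4 arrays) of 57 other mitotic genes, grouped by role and sorted within a role, with red for called higher, blue for called lower and white for not called. Motors and condensin have blue symbols and no red one after loess, whereas the checkpoint, kinetochore and anaphase groups have both; under median centring alone no gene is called, the median of all probes is 0.15, and some blue symbols (Nusap1, Nek2, Kif4, Ncapg, Ube2c and Bub3) lie above that median.

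The genes of the wider list whose ratios lay nearest the median profile of the 10 genes over the 4 arrays were Tpx2, an activator of Aurora A (root mean square difference 0.0343), Mybl2, a transcription factor of the G2/M programme (0.0369), and Ttk, the checkpoint kinase MPS1 (0.0423). Tpx2 had ratios of -0.09, 0.02, 0.08 and 0.05, Mybl2 had -0.08, -0.01, 0.02 and -0.03, and Ttk had -0.14, 0.08, -0.01 and 0.08. Their low ratio in replicate 1 follows from the choice by likeness.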

How the data were processed

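RNA of 4 paired samples was measured on 4 arrays. Per the file headers, Agilent Feature Extraction 9.5.1.1 made the scanner files (the submitters' processing notes name version 9), with probe positions on mm7. The deposited files hold linear spot intensity in both dyes, and processed signals that the authors' software had background-corrected and dye-normalized. The deposited value table was the log10 ratio (Cy5 over Cy3) of each spot, equal to the ratio column of the scanner files, so its scale and direction are known; each of its columns had a median of 0.

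Mean intensities were background-corrected (normexp, offset 50) and loess-normalized within each array with control spots at weight 0, in limma 3.58.1 (R 4.3.3). Outlier spots were left out, spots of a probe averaged, and ratios tested against 0 (lmFit, eBayes, two-sided, Benjamini-Hochberg) across 26545 probes. The code was tested on simulated data. The number of arrays, 4, limits the precision. Probes were named through RefSeq tables by accession (22951 and 124 in lists), current symbol (6582) or synonym (3077); for 8440 the file's own name was used.

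Members and lists were chosen with earlier results of these data known. All members are named; of the wider list, the called genes with the largest absolute ratios, at most 20, are given with values, and 5 further called genes fall outside that limit, of which those named (Smc2, Spc25, Pttg1 and Cdc27, and Smc4, which was not called) were chosen after their values were seen. The 3 genes with the smallest root mean square difference to the members' median profile are also named. Alternatives tried were the offset, the processed signals, median centring, the filter, outlier spots, trends removed, the variance prior, separate channels, left-out replicates and the median over a gene's probes. The sequences of the other probes are not reported here.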

Additional observations from a re-analysis of the deposited data

How the results depend on the processing

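Leaving out 1 replicate gave 2142 to 3515 probes called higher and 2080 to 2736 lower (3776 and 3600 with all), 2 to 3 and 1 to 2 mitotic probes (5 and 1), and 5 to 10 and 10 to 13 of the other mitotic genes (9 and 16). The processed signals gave 2378 probes lower, 1 mitotic probe higher and 0 lower, and 5 and 6 other genes. Treating the channels of each array as unpaired samples gave 330 and 252 probes, 1 and 0 mitotic probes (2 and 1 at an unadjusted p under 0.05), and 1 and 1 other genes. With trends removed, 2 mitotic probes were higher and 2 lower. An offset of 10, no filter, and detection in both channels each gave 3 higher, beside 2882, 3696 and 3351 over all probes. Except with detection in both channels, each of these counts of higher mitotic probes includes the 5′ Aspm probe, whose IgG signal was below background. It was the only such probe from the processed signals and with unpaired channels. Without replicate 3, both were Aspm probes that the main test admitted by their anti-TIM3 signal. The counts are therefore a description.

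With median centring alone, limma called 0 probes in either direction, 0 mitotic probes and 0 other genes; 1006 probes and 0 mitotic probes had an unadjusted p under 0.05. The median of all probes was then 0.15, and 15 of the 17 mitotic probes lay above it. This centring does not correct the ratio for signal strength, and the mitotic probes were brighter than most. Their median IgG signal was 3594 to 4677 on the 4 arrays, beside 309 to 390 for all tested probes. The part of signal strength in these ratios was not tested. Ratios on the other side of 0 there, though not all above that median, were Mki67 at 0.250 and 0.337, 3′ Top2a 0.208, 5′ Cdk1 0.339, Aurka 0.503, Plk1 0.509, Bub1 0.390, Racgap1 0.109, Kif2c 0.017, Ube2c 0.222, Nusap1 0.200, Ncapg 0.267, Ncaph 0.100, Bub1b 0.136, Ndc80 0.113, Nek2 0.179, Bub3 0.390 and Kif4 0.192. Elsewhere, Aurkb was -0.047 with trends removed and Bub1 0.007 from the processed signals. With 1 replicate left out, 5′ Mki67 ranged from -0.131 to 0.013, Plk1 from -0.042 to 0.023, Bub1 from -0.032 to 0.041 and 3′ Aspm from -0.010 to 0.118. The cause was not tested. Signal over background limits the Aspm 5′ and middle probes.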
